A study of Mus musculus with 29 samples.

Results

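The libraries described here came from mouse regulatory T (Treg) cell cultures that received a guide RNA against Smad3 (sgSmad3, 2 libraries), set against Treg cultures without a guide (control, 2 libraries). They are 4 of the 29 samples of a series on C57BL/6 mice that asks, in this experiment, what Smad2 and Smad3 do for the expression of Acsl6. In all 4, spleen naive CD4 T cells spent 5 days in IL-2 (15 ng/ml) plus human TGF-beta (10 ng/ml), and total RNA was read with a kit that counts tags at the 3′ end of polyadenylated transcripts. Further pairs of libraries from the same kind of culture were used for comparison, with guides against Smad2 and Smad3 together (sgSmad2/3, 2 libraries) and against Smad2 alone (sgSmad2, 2 libraries), as were 3 Treg and 3 Th0 libraries of a separate experiment, where Th0 cells had IL-2 for 5 days without TGF-beta. The labels give no guide sequences, source of Cas9 or share of cells edited, and name no non-targeting guide for the control. Levels are in CPM, a gene's counted reads scaled to a common library total and rounded by the authors. Of 55421 genes listed, 10185 reached 5 CPM in at least 2 of the 4 sgSmad3 and control libraries and were tested. Whether the replicates stem from different mice or cultures is not stated in the labels, and the p-values measure only the spread between these samples, which may be technical.

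Smad3 and Smad2 are the receptor-regulated transducers of the TGF-beta pathway. The ligand brings together type II and type I receptor kinases, the type I receptor phosphorylates Smad2 and Smad3, and these enter the nucleus with Smad4. Smad3 binds DNA directly through short CAGAC-type elements, often beside AP-1 factors, whereas the common form of Smad2 does not bind DNA on its own. In naive CD4 T cells the pathway is known for inducing Foxp3, the lineage factor of Treg cells. Acsl6 encodes a long-chain acyl-CoA synthetase, an enzyme that joins fatty acids to coenzyme A before they are built into lipids or oxidised.

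The 10 genes that passed the test in sgSmad3 against control cultures included Acsl6, which was lower with the guide. Acsl6, Fchsd2, Diaph2 and Eif4a2 were lower, and Itgb3, Myo6, Ms4a6b, Nup93, Farsa and the small nucleolar RNA Gm23639 were higher. These 10 of 10185 genes made up 0.0982% of those tested (6 higher, 4 lower; limma with Benjamini-Hochberg adjustment over all tested genes, adjusted p under 0.05), and 1181 genes (11.6%) had an unadjusted p under 0.05. None of the 10 had passed the filter through one group only, and their lowest value in any of the 4 libraries was 14 CPM. The spread was estimated over the 8 libraries of the 4 guide groups: with the 4 libraries alone 0 genes passed in limma (lowest adjusted p = 0.522), leaving out control replicate 1, control replicate 2 or sgSmad3 replicate 1 also left 0, while leaving out sgSmad3 replicate 2 left 4 genes, 1 of them among the 10. A filter at 1 CPM or more in at least 2 of the 8 libraries, in place of 5 in at least 2 of the 4, left 0 of 18347 genes (lowest adjusted p = 0.118), and a fit without the intensity trend called 2 genes, neither among the 10. All 10 kept their direction in each of these settings. In a test of 2 against 2 libraries by exact permutation the smallest p is 0.333, so no single gene could pass by such a test.

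Promoter sequence is shown for Acsl6, the gene this experiment was built around, and for Myo6 and Nup93, which were among the genes that rose. The sequences are RefSeq windows on GRCm38.p6 from 250 bases before to 50 bases after an annotated start site, and capitals mark CAGAC on either strand (GTCTG when it lies on the other strand) and TGANTCA, the AP-1 element.
Acsl6, chr11:54303574-54303873, plus strand: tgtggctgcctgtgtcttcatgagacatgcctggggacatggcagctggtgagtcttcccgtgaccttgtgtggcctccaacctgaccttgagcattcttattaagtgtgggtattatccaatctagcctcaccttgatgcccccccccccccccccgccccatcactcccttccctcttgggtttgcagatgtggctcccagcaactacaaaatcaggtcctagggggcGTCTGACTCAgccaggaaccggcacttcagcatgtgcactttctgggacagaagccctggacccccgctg
Myo6, chr9:80164784-80165083, plus strand: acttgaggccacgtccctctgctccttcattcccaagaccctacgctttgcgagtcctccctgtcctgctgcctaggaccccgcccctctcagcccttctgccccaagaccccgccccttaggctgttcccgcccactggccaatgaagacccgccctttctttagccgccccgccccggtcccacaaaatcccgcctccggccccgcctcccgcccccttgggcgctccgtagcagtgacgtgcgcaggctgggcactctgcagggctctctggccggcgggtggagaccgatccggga
Nup93, chr8:94214314-94214613, plus strand: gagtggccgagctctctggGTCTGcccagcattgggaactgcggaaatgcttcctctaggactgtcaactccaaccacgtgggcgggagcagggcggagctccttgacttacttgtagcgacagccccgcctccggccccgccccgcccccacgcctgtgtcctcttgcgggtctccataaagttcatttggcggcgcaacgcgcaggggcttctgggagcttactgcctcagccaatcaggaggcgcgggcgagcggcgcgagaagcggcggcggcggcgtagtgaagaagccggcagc
In the Acsl6 window a CAGAC element on the minus strand, 20 bases before the start site, overlaps a TGANTCA element 17 bases before it. The Nup93 window holds 1 CAGAC element, 231 bases before the start, and the Myo6 window none. The windows of Ms4a6b, Eif4a2 and Ubash3b, looked up by the same rule but not printed, hold neither CAGAC nor TGANTCA. The Ubash3b window (chr9:41158013-41158312, minus strand) lies inside the gene's annotated span, which ends at 41161692, so it does not cover the outermost 5′ end. Among the called genes, 4 higher and 4 lower ones have a window. CAGAC occurs in 1 of the 4 higher and 1 of the 4 lower, and TGANTCA in 0 of the 4 higher and 2 of the 4 lower. CAGAC is present in 49.7% of the 27025 promoter windows of the RefSeq table and in 46.7% of the 7615 windows of tested genes, and TGANTCA in 7.92% and 4.12%. GGCGC, another Smad motif, occurs in 37.2% of all windows and 67.9% of those of tested genes, once in Myo6, 3 times in Nup93 and not in the Acsl6 window. These matches describe letters in the windows and were not tested against binding.

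Transcript tags of the targeted gene itself differed little. Smad3 (ENSMUSG00000032402, chromosome 9, 63646766 to 63757994) had 26 and 25 CPM in sgSmad3 libraries, against 30 and 34 in control libraries. The sgSmad3 values lay below both control values, and the log2 change of -0.31 (SE 0.23) did not pass the test (limma adjusted p = 0.62). A tag at the 3′ end does not report a small insertion or deletion at a cut site elsewhere in the gene, so this level does not check the edit. Smad2, the partner that the guide does not target, had 25 and 30 CPM in sgSmad3 libraries, against 37 and 29 in control libraries, and the groups overlapped (log2 change -0.25, limma adjusted p = 0.81).

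Acsl6 (ENSMUSG00000020333, chromosome 11, 54303805 to 54364756) had 27 CPM in both sgSmad3 libraries, against 75 and 68 in control libraries. Neither sgSmad3 library came near the control range. The log2 change was -1.37 (SE 0.22, limma adjusted p = 0.0286), which left Acsl6 at 0.387 times its control level on the log2(value + 1) scale. Where the Smad2 guide was also present, Acsl6 had 31 and 43 CPM in sgSmad2/3 libraries, against 82 and 78 in sgSmad2 libraries, a log2 change of -1.11 that fell short of the threshold (limma adjusted p = 0.0678). Between the single guides, the 27 CPM of both sgSmad3 libraries lay below the 82 and 78 of the sgSmad2 libraries, and this difference passed (log2 change -1.53, limma adjusted p = 0.029). It no longer passed without the intensity trend or with a filter at 1 CPM. In the other experiment Acsl6 was among the genes that rose with TGF-beta, with 23.7, 56.7 and 62.7 CPM in Treg and 8.48, 11.1 and 9.80 in Th0 libraries.

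Acsl6 was the single call among the 11 tested acyl-CoA synthetases. The family's median log2 change was -0.32, against 0.034 over all genes tested. In sgSmad2/3 against sgSmad2 the median of these genes was -0.028, against 0.020 over all genes. Their summed levels of 670 and 614 CPM in sgSmad3 libraries, against 654 and 668 in control libraries, overlapped. Acsbg1, which activates very long-chain fatty acids, had 46 CPM in both sgSmad3 libraries, against 69 and 63 in control libraries, without overlap but also without passing the test (log2 change -0.51, SE 0.23, limma adjusted p = 0.42). Acsl5, the long-chain synthetase of mitochondria and endoplasmic reticulum, had 180 and 153 CPM in sgSmad3 libraries, against 110 and 133 in control libraries (log2 change 0.45, unadjusted p = 0.017). The remaining members lay between log2 changes of -0.79 and 0.19.

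The other 3 genes that fell act on the actin cortex and on translation. Fchsd2 (chromosome 7, 101108499 to 101284405), an F-BAR and SH3 protein of clathrin-coated pits, had 64 and 59 CPM in sgSmad3 libraries, against 123 and 141 in control libraries. Diaph2 (chromosome X, 129749668 to 130465834), a formin that elongates actin filaments, had 131 and 114 in sgSmad3 libraries, against 239 and 235 in control libraries. In both genes each sgSmad3 value was below each control value, with log2 changes of -1.09 (SE 0.19) for Fchsd2 and -0.95 (SE 0.16) for Diaph2 (limma adjusted p = 0.0286 for each). Eif4a2 (chromosome 16, 23107468 to 23114132), an RNA helicase of translation initiation, had 21 and 27 CPM in sgSmad3 libraries, against 58 and 59 in control libraries (log2 change -1.26, SE 0.22, limma adjusted p = 0.0396). The annotated span of Eif4a2 overlaps Rfc4 and the small nucleolar RNAs Snora81 and Snord2, and the strand setting of the authors' counting is not given, so its reads could not be told from theirs.

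Ubash3b and Cd38 stood next to the threshold. Ubash3b (chromosome 9, 41010760 to 41161692), a phosphatase that restrains T cell receptor signalling, had 58 and 57 CPM in sgSmad3 libraries, against 147 and 121 in control libraries, and did not pass (log2 change -1.20, SE 0.23, limma adjusted p = 0.0746). Cd38, an ectoenzyme that breaks down NAD, had 4 CPM in both sgSmad3 libraries, against 19 in both control libraries (log2 change -2.0, SE 0.37, limma adjusted p = 0.0539), and was singled out after its values were seen. Cd38 had passed the filter on low values through the control libraries alone, so that its separation was favoured by the filter, whereas Ubash3b lay above the filter in all 4 libraries and its groups were separate.

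Among the genes that rose, Itgb3 and Myo6 had the largest changes. Itgb3 (chromosome 11, 104608000 to 104670476) encodes the beta3 integrin chain, which pairs with the alphaV chain in receptors for vitronectin. It had 44 and 42 CPM in sgSmad3 libraries, against 14 and 15 in control libraries, a log2 change of 1.51 (SE 0.25, limma adjusted p = 0.0286). Myo6 (chromosome 9, 80164976 to 80311729), the myosin that walks toward the minus end of actin filaments, had 180 and 171 in sgSmad3 libraries, against 69 and 70 in control libraries, a log2 change of 1.32 (SE 0.18, limma adjusted p = 0.0203). The groups were far apart in both genes, and the 2 libraries of each group lay close together.

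Nup93 (chromosome 8, 94214564 to 94328100), a scaffold protein of the nuclear pore, had 258 and 213 CPM in sgSmad3 libraries, against 99 and 121 in control libraries (log2 change 1.09, SE 0.19). Farsa (chromosome 8, 84856969 to 84869257), the alpha subunit of phenylalanyl-tRNA synthetase, had 444 and 395 in sgSmad3 libraries, against 195 and 216 in control libraries (log2 change 1.03, SE 0.17). Ms4a6b (chromosome 19, 11518559 to 11530403), a membrane protein of T cells, had 624 and 421 in sgSmad3 libraries, against 220 and 216 in control libraries (log2 change 1.23, SE 0.20). All 3 had a limma adjusted p of 0.0286 and no overlap between groups, with the wider spread in Ms4a6b, where sgSmad3 replicate 1 was the high library. Reads of Ms4a6b may be shared with near-identical members of the Ms4a family. Gm23639, a small nucleolar RNA annotated within Epb41l4aos, had 72 CPM in both sgSmad3 libraries, against 26 and 33 in control libraries (log2 change 1.27, SE 0.20, limma adjusted p = 0.0286). Its reads could equally be those of the host transcript.

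**Figure D1:**
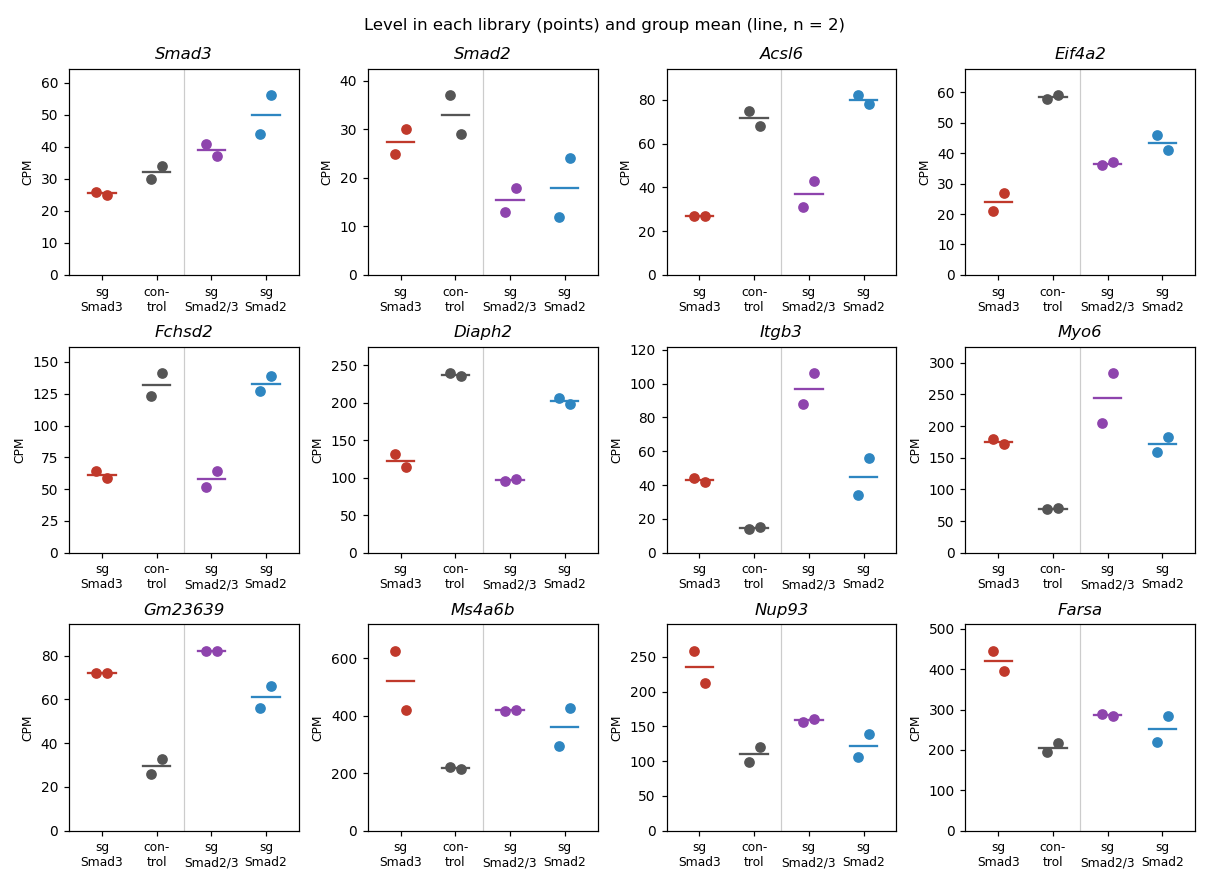
CPM (vertical axis, linear from 0) of Smad3, Smad2 and the 10 genes that passed the test in sgSmad3 against control, in sgSmad3, control, sgSmad2/3 and sgSmad2 libraries from left to right; points are libraries and lines are means of 2. Acsl6 sits at 27 in both sgSmad3 libraries and at 75 and 68 in control libraries, while Myo6 sits at 180 and 171 in sgSmad3 libraries and at 69 and 70 in control libraries.

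Cultures with guides against both genes were also set against those with the Smad2 guide alone, in 4 libraries that share none with the comparison above. The labels do not say whether their guides were the same as in the single-guide cultures. In sgSmad2/3 against sgSmad2, 10 of the 10185 genes passed the test (0.0982%; 2 higher, 8 lower; limma with Benjamini-Hochberg adjustment), and 711 had an unadjusted p under 0.05. All 10 genes called in sgSmad3 against control had the same sign here, 5 of them with an unadjusted p under 0.05, and Fchsd2 and Diaph2 passed again. Fchsd2 had 52 and 64 CPM in sgSmad2/3 libraries, against 127 and 139 in sgSmad2 libraries (log2 change -1.19, limma adjusted p = 0.0224). Diaph2 had 95 and 98 in sgSmad2/3 libraries, against 206 and 198 in sgSmad2 libraries (log2 change -1.06, limma adjusted p = 0.0224). The groups did not overlap in either gene. These calls were lost (0 genes) with the filter at 1 CPM, with no filter, without the intensity trend and without either sgSmad2/3 library.

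The genes that rose with the Smad3 guide alone showed smaller differences on the Smad2-guide background. Myo6 had 204 and 283 CPM in sgSmad2/3 libraries, against 159 and 183 in sgSmad2 libraries (log2 change 0.49, limma adjusted p = 0.60). Itgb3 had 88 and 106 in sgSmad2/3 libraries, against 34 and 56 in sgSmad2 libraries (log2 change 1.13, limma adjusted p = 0.15). Farsa, Nup93, Ms4a6b and Gm23639 had log2 changes there of 0.19, 0.39, 0.24 and 0.43, and Eif4a2 of -0.25, none of which passed. The difference between the guide's effects with and without the Smad2 guide was tested for every gene, and 0 of 10185 (0.00%) passed in limma, with 288 at an unadjusted p under 0.05 and a lowest adjusted p of 0.185, for Id2. A smaller change in sgSmad2/3 is therefore not shown to differ from that in sgSmad3.

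Across all 10185 genes the log2 change in sgSmad3 against control and that in sgSmad2/3 against sgSmad2 had a Pearson r of 0.317 and a Spearman rho of 0.331, and 62.7% of genes had the same sign in both. These values are over genes, which are not independent, and describe libraries that have culture conditions and library kit in common. Of the 8 genes lower in sgSmad2/3 than in sgSmad2, Cd40, a costimulatory receptor best known on antigen-presenting cells, had 18 and 15 CPM in sgSmad3 libraries, against 42 and 43 in control libraries (log2 change -1.32, limma adjusted p = 0.0897). Nt5e, the ectoenzyme CD73 that makes adenosine, had 41 and 39 in sgSmad3 libraries, against 66 and 68 in control libraries (log2 change -0.73, limma adjusted p = 0.27). In both genes all sgSmad3 values lay below all control values without passing the test.

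Directly set against the Smad2 guide, the Smad3 guide gave 5 genes that passed, all lower in sgSmad3 (0.0491% of 10185; limma with Benjamini-Hochberg adjustment; 951 at an unadjusted p under 0.05). They were Acsl6, Fchsd2, Endod1, Cd40 and Ncmap. Without the intensity trend none of these 5 passed, and the 1 gene that did was higher in sgSmad3. With a filter at 1 CPM or with no filter, 0 passed. Endod1, a putative endonuclease, had 51 and 60 CPM in sgSmad3 libraries, against 136 and 131 in sgSmad2 libraries (log2 change -1.26, limma adjusted p = 0.041). Fchsd2 had 64 and 59 in sgSmad3 libraries, against 127 and 139 in sgSmad2 libraries (log2 change -1.10, limma adjusted p = 0.0483). By contrast, Myo6 had 180 and 171 in sgSmad3 libraries, against 159 and 183 in sgSmad2 libraries, and Itgb3 had 44 and 42, against 34 and 56, so that both overlapped between the single guides. For Myo6 and Itgb3 the log2 differences between the single guides were 0.04 (SE 0.18) and -0.02 (SE 0.25), with limma adjusted p of 0.97 and 0.99. Both sgSmad2 values also lay above both control values for Myo6 (control 69 and 70) and Itgb3 (14 and 15). The same held for Ms4a6b (sgSmad2 294 and 427, control 220 and 216), Gm23639 (56 and 66, control 26 and 33) and Farsa (220 and 285, control 195 and 216). Nup93 overlapped (106 and 139, control 99 and 121). The difference between sgSmad2 and control was not tested.

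**Figure D2:**
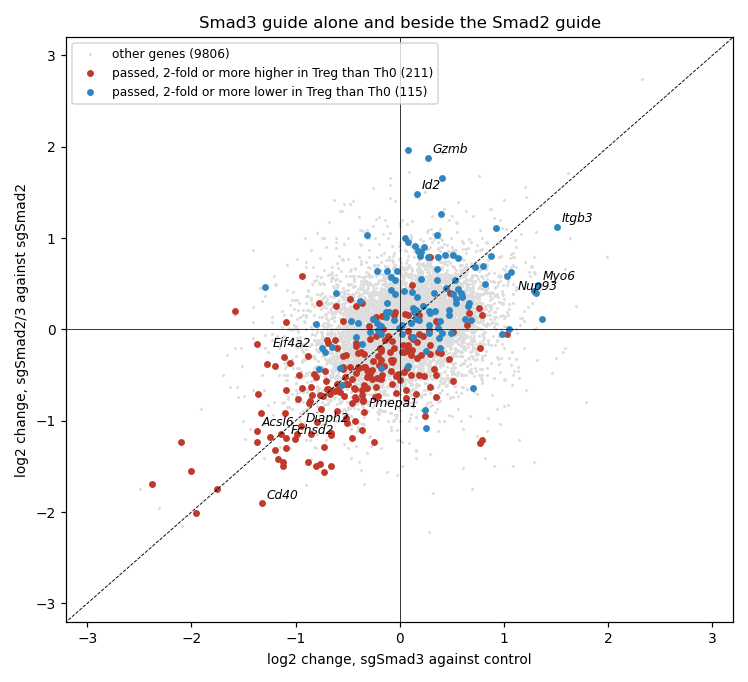
Each point is a gene, with its log2 change in sgSmad3 against control on the horizontal axis and in sgSmad2/3 against sgSmad2 on the vertical axis; the dashed line is equality, and colours mark genes that passed the test in Treg against Th0 and were at least 2-fold higher (211) or lower (115) in Treg. Fchsd2 and Diaph2 lie near the line at about -1 on both axes, whereas Eif4a2 lies at -1.26 and -0.25.

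The response of these genes to TGF-beta was taken from the separate Treg and Th0 libraries. There 423 of 14165 genes were higher (2.99%) and 347 lower (2.45%) in Treg than in Th0 cultures (limma with Benjamini-Hochberg adjustment). Of the 10 genes called with the Smad3 guide, 6 were among them, each with the opposite sign. Acsl6, Diaph2 and Fchsd2 were higher in Treg, with log2 changes of 2.07, 1.99 and 1.89, and fell with the guide. Itgb3, Myo6 and Ms4a6b were lower in Treg, with log2 changes of -2.47, -1.83 and -0.98, and rose with it. In both sgSmad2 libraries Itgb3, Myo6 and Ms4a6b also lay above both control libraries. Eif4a2, Nup93 and Farsa had Treg against Th0 log2 changes of 0.01, 0.09 and 0.02, and Gm23639 of -0.52, none of which passed.

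Genes that passed the test in Treg against Th0 and were at least 2-fold higher in Treg numbered 233, of which 211 passed the filter on low values. Of these, 7 did so through the control libraries only, Cd38 among them, so that the filter itself favoured a lower level with the guide. Acsl6, Diaph2 and Fchsd2 passed the test with the Smad3 guide and fell, and none passed as higher. A wider description counts genes whose 2 sgSmad3 libraries lay apart from both control libraries with a change of at least 1.5-fold, which over all tested genes held for 598 higher (5.87%) and 533 lower (5.23%). Without genes that passed through one group only, 55 of 204 (27%) were apart and lower and 3 (1.47%) apart and higher, against 4.28% lower and 5.27% higher of 9987 genes in all, and the median log2 change was -0.34, against 0.035. With them, 62 of 211 (29.4%) were apart and lower. At a mean of 20 CPM or more, 40 of 140 such genes were apart and lower, against 172 of 6656 genes in all. In the 4 libraries with the Smad2 guide, 53 of those 55 genes were lower in sgSmad2/3 than in sgSmad2 (96.4%), against 307 of the 427 genes apart and lower overall (71.9%) and 46.9% of all genes tested. Of all 211 genes, apart or not, 182 were lower there (86.3%), so most of that share belongs to the whole set. Summed over the 211 genes, the level was 17682 and 17452 CPM in sgSmad3 libraries, against 18899 and 21069 in control libraries.

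Some members of this group are given by value. Rgs1, which turns off chemokine receptor signalling, had 345 and 413 CPM in sgSmad3 libraries, against 540 and 665 in control libraries (log2 change -0.67, SE 0.17, limma adjusted p = 0.18). Sgk1, a salt- and growth factor-regulated kinase, had 88 and 105 in sgSmad3 libraries, against 184 and 233 in control libraries (log2 change -1.10, limma adjusted p = 0.11). Neither passed, although each sgSmad3 value lay below each control value. Prnp, the prion protein gene, had 437 and 423 in sgSmad3 libraries, against 668 and 728 in control libraries (log2 change -0.70, limma adjusted p = 0.11). Tead1, the DNA-binding partner of YAP, had 78 and 81 in sgSmad3 libraries, against 127 and 167 in control libraries (log2 change -0.86, limma adjusted p = 0.11), and Prnp and Tead1 likewise did not pass or overlap. Igfbp4, a binding protein of insulin-like growth factors, was 1 of the 3 that lay the other way, with 2007 and 2194 in sgSmad3 libraries, against 1284 and 1368 in control libraries (log2 change 0.66, SE 0.17, limma adjusted p = 0.18). These genes, Igfbp4 and Rgs1 apart, were chosen for description after their values were seen.

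Genes that passed the test in Treg against Th0 and were at least 2-fold lower in Treg numbered 177, of which 115 passed the filter, none through one group only. Itgb3 and Myo6 passed the test with the Smad3 guide and rose, and none fell. Libraries were apart and higher in 15 of the 115 (13%) and apart and lower in 6 (5.22%), and the median log2 change was 0.22, against 0.034 over all genes. The share apart and lower was that of all genes, 5.23%. Of the 15, 14 were higher in sgSmad2/3 than in sgSmad2 (93.3%), against 76.4% of the 598 genes apart and higher overall. Of all 115 genes, apart or not, 89 were higher there (77.4%), against 52.2% of all genes tested. Cd28, the main costimulatory receptor of T cells, had 89 and 83 CPM in sgSmad3 libraries, against 43 and 56 in control libraries, without overlap (log2 change 0.80, SE 0.20, limma adjusted p = 0.18). Itga7, an alpha chain of laminin-binding integrins, had 31 and 39 in sgSmad3 libraries, against 16 and 17 in control libraries (log2 change 1.03, limma adjusted p = 0.16). Nrn1, neuritin, lay the other way with 7 and 8 in sgSmad3 libraries, against 17 and 23 in control libraries (log2 change -1.29, limma adjusted p = 0.16). In each of these 3 genes, of which Itga7 and Nrn1 were picked after their values were seen, the groups were separate but did not pass the test.

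**Figure D3:**
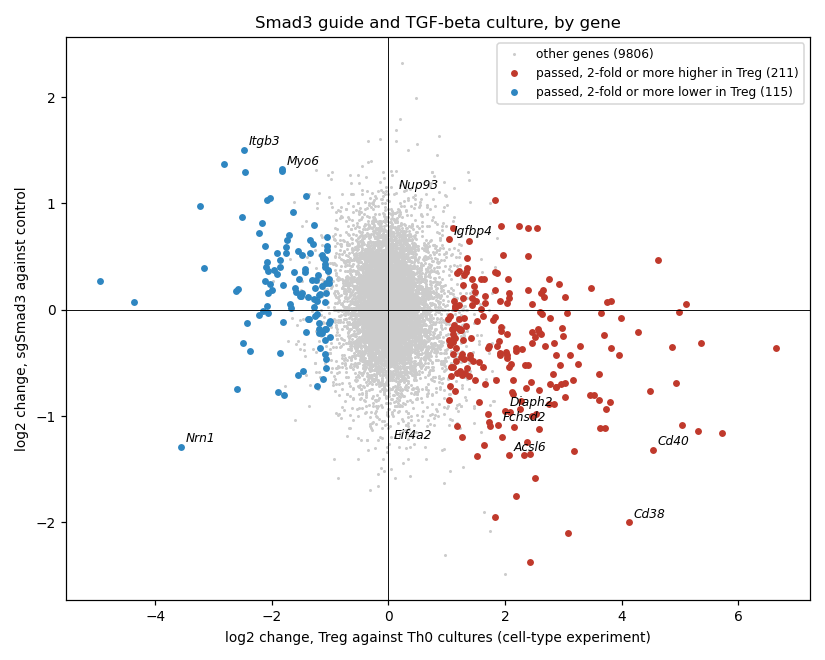
Each point is a gene, with its log2 change in Treg against Th0 cultures (separate experiment) on the horizontal axis and in sgSmad3 against control on the vertical axis; of genes that passed the test in Treg against Th0, red marks 211 at least 2-fold higher and blue 115 at least 2-fold lower in Treg. Red genes have a median of -0.35 and blue genes a median of 0.22 on the vertical axis.

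Within the TGF-beta pathway itself no gene passed the test. The 12 tested ligands, receptors and activators had a median log2 change of -0.23, and none was apart by 1.5-fold. Tgfbr1, the type I receptor, had 25 and 32 CPM in sgSmad3 libraries, against 38 and 33 in control libraries, and Tgfbr2, the type II receptor, had 55 and 67, against 69 and 54. The first pair of groups was narrowly separate and the second overlapped. Furin, the protease that matures TGF-beta, had 163 and 109 in sgSmad3 libraries, against 188 and 172 in control libraries (log2 change -0.43, limma adjusted p = 0.46), and Tgfb1, the ligand, had 66 and 58, against 38 and 54 (log2 change 0.44, limma adjusted p = 0.49).

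Of 20 tested Smads and feedback regulators, 0 passed, and their median log2 change was -0.20. Skil, the Smad corepressor SnoN, had 225 and 307 CPM in sgSmad3 libraries, against 320 and 391 in control libraries (log2 change -0.43, SE 0.18, limma adjusted p = 0.39). Pmepa1, which sequesters receptor-regulated Smads, had 529 and 504 in sgSmad3 libraries, against 647 and 662 in control libraries (log2 change -0.34, SE 0.15, limma adjusted p = 0.41). Neither gene's groups overlapped. Pmepa1 was among the genes that passed beside the Smad2 guide, with 343 and 381 in sgSmad2/3 libraries, against 637 and 716 in sgSmad2 libraries (log2 change -0.90, limma adjusted p = 0.023). Smad7, the inhibitory Smad, had 132 and 170 in sgSmad3 libraries, against 152 and 190 in control libraries, and the groups overlapped.

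The 25 tested TGF-beta target genes had a median log2 change of -0.18, with 0 that passed. The 2 apart and higher and the 2 apart and lower are close to the shares over all genes tested, 5.87% and 5.23%. Itgae, the CD103 integrin chain, had 18 and 26 CPM in sgSmad3 libraries, against 39 and 36 in control libraries, without overlap (log2 change -0.76, limma unadjusted p = 0.0143, adjusted p = 0.33). Id1, an inhibitor of E-protein transcription factors, had 12 in both sgSmad3 libraries, against 3 and 7 in control libraries (log2 change 1.20, SE 0.37, limma adjusted p = 0.26). Id2, of the same family, had 215 and 220 in sgSmad3 libraries, against 185 and 204 in control libraries (log2 change 0.16). Set beside this, Id2 had 619 and 548 in sgSmad2/3 libraries, against 196 and 219 in sgSmad2 libraries, where it rose. Among the 6 tested Id and E proteins, Tcf4 lay lowest, with 47 in both sgSmad3 libraries, against 73 and 88 in control libraries (log2 change -0.76, limma adjusted p = 0.22).

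Treg identity genes were mixed. Foxp3 had 198 and 257 CPM in sgSmad3 libraries, against 177 and 320 in control libraries, with the sgSmad3 values inside the control range (log2 change -0.08, SE 0.27, limma adjusted p = 0.94). Without control replicate 2 or without sgSmad3 replicate 1 its sign turned. Of 23 tested Treg core genes 0 passed, 1 was apart and higher and 5 were apart and lower (Rgs1, Nt5e, Nrp1, Itgae and Ebi3; 5.87% and 5.23% over all genes tested), with a median log2 change of -0.08. Nrp1, the semaphorin coreceptor neuropilin-1, had 59 and 96 in sgSmad3 libraries, against 111 and 173 in control libraries (log2 change -0.87, limma unadjusted p = 0.00864, adjusted p = 0.30). The separation in Nrp1 was narrow beside the spread within either group. In bulk RNA, fewer cells expressing a gene and less RNA per cell cannot be told apart.

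Effector T helper genes (12 tested) had 0 that passed, 3 apart and lower (5.23% over all genes tested) and a median log2 change of -0.22, or 0.038 in sgSmad2/3 against sgSmad2, and Il17a, Il17f, Il21 and Il22 were listed at 0 in the sgSmad3 and control libraries. Il18r1, the interleukin-18 receptor, had 51 and 59 CPM in sgSmad3 libraries, against 95 and 104 in control libraries, without overlap (log2 change -0.85, SE 0.21, limma adjusted p = 0.18). Naive and quiescence genes (22 tested, median 0.034) and genes of IL-2 and STAT5 signalling (17 tested, median -0.10) had no gene that passed. Il7r, the interleukin-7 receptor, had 47 and 36 in sgSmad3 libraries, against 62 and 79 in control libraries (log2 change -0.75, limma adjusted p = 0.21). Of 14 tested costimulatory and checkpoint receptors, 3 were apart and higher and none apart and lower (5.87% and 5.23% over all genes tested), with a median log2 change of 0.16. Besides Cd28, these were Tnfrsf9 (4-1BB), with 208 and 139 in sgSmad3 libraries, against 102 and 120 in control libraries, and Btla, with 9 and 13, against 5 and 7. None of the 14 passed.

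Integrins and adhesion genes (16 tested) had Itgb3 as the call. Itgav, the alphaV partner chain of Itgb3, had 46 and 52 CPM in sgSmad3 libraries, against 43 and 46 in control libraries (log2 change 0.13, unadjusted p = 0.54), so that the partner's groups touched while those of Itgb3 were separate. Cd44, the hyaluronan receptor, had 105 and 119 in sgSmad3 libraries, against 71 and 79 in control libraries (log2 change 0.57, unadjusted p = 0.00619), and did not pass. The 9 tested chemokine receptors had 0 that passed, and Cx3cr1, the fractalkine receptor, had 64 and 45 in sgSmad3 libraries, against 74 and 103 in control libraries (log2 change -0.69, limma adjusted p = 0.30).

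Proliferation genes lay on the higher side. Of 35 tested cell cycle genes 0 passed, but 10 had an unadjusted p under 0.05, all higher (697 of 10185 genes were higher at that level), and the median log2 change was 0.27, against 0.034 over all genes. Their summed level was 13574 and 14331 CPM in sgSmad3 libraries, against 11955 and 11709 in control libraries. Plk1, a mitotic kinase, had 296 and 322 in sgSmad3 libraries, against 165 and 203 in control libraries (log2 change 0.75, SE 0.16, limma adjusted p = 0.11). Mcm2, a subunit of the replicative helicase, had 196 and 198 in sgSmad3 libraries, against 117 and 134 in control libraries (log2 change 0.65, SE 0.17, limma adjusted p = 0.18). In both genes, and in the sum, all sgSmad3 values lay above all control values. Nucleolar genes of ribosome assembly (30 tested) had 4 apart and higher, none apart and lower (5.87% and 5.23% over all genes tested) and a median log2 change of 0.12, or -0.066 in sgSmad2/3 against sgSmad2. Their sums of 5764 and 5526 in sgSmad3 libraries, against 6180 and 4987 in control libraries, overlapped. The lowest unadjusted p among them was that of Dkc1, the pseudouridine synthase dyskerin, with 467 and 338 in sgSmad3 libraries, against 254 and 255 in control libraries (log2 change 0.64, limma adjusted p = 0.19). Nucleoporins and aminoacyl-tRNA synthetases were listed after Nup93 and Farsa had been seen. Among 28 nucleoporins Nup93 was the only call, with Nup62, of the central channel, at 193 and 178 in sgSmad3 libraries, against 93 and 121 in control libraries (log2 change 0.80, limma adjusted p = 0.13). Farsa was the only call among 20 synthetases, whose median log2 change was -0.04.

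Genes of lipid and energy metabolism other than Acsl6 did not pass. Fatty acid synthesis (20 tested, median -0.08), cholesterol synthesis (24, median -0.02) and fatty acid oxidation genes (23, median -0.08) lay close to the median of all genes in sgSmad3 against control. In sgSmad2/3 against sgSmad2 their medians were 0.133, 0.339 and -0.021, against 0.020 over all genes. That of glycolysis and hypoxia genes was 0.247 there. Srebf2, the transcription factor that drives cholesterol synthesis, had 406 and 375 CPM in sgSmad3 libraries, against 252 and 287 in control libraries, without overlap (log2 change 0.54, SE 0.19, limma adjusted p = 0.32). Glycolysis and hypoxia genes (27 tested, median -0.04) were lowest in Aldoc, an aldolase, with 115 and 98 in sgSmad3 libraries, against 147 and 220 in control libraries (log2 change -0.76, limma adjusted p = 0.18). Oxidative phosphorylation subunits (72 tested) had a median of 0.02. The 7 tested mitochondrial genome genes summed to 22179 and 16713 in sgSmad3 libraries, against 14992 and 17159 in control libraries, where sgSmad3 replicate 1 alone was high. It was also the high library for mt-Nd4, a subunit of complex I, with 6204 and 3181 in sgSmad3 libraries, against 3003 and 3948 in control libraries.

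Stress and interferon genes had 0 calls among 19 p53 targets, 16 genes of the integrated stress response, 23 interferon-response genes, 14 genes of class I antigen presentation and 17 AP-1 and immediate early genes. Shmt2, the mitochondrial serine hydroxymethyltransferase, had 110 and 89 CPM in sgSmad3 libraries, against 56 and 64 in control libraries, without overlap (log2 change 0.72, SE 0.19, limma adjusted p = 0.19). Jun, an AP-1 subunit, had 225 and 186 in sgSmad3 libraries, against 241 and 338 in control libraries (log2 change -0.48, limma adjusted p = 0.37).

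**Figure D4:**
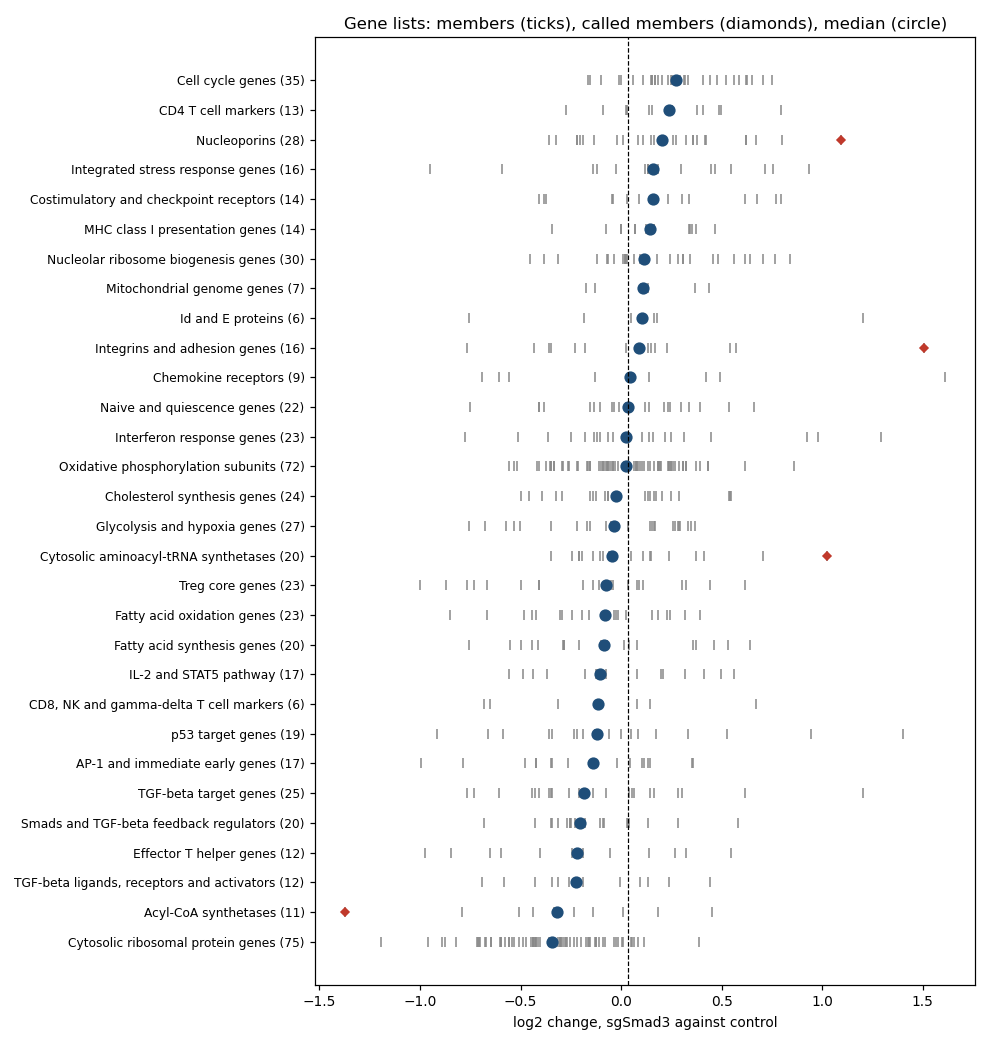
Log2 change in sgSmad3 against control (horizontal axis) for the tested members of each gene list with 6 or more of them (number in parentheses): ticks are genes, diamonds are genes that passed the test, circles are list medians and the dashed line is the median of all genes, 0.034. Medians run from 0.27 for cell cycle genes to -0.35 for cytosolic ribosomal protein genes.

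The libraries held 1602297 and 1294583 reads for sgSmad3 and 1541289 and 1433268 for control. A level of 0 in this table is given only as listed, since mt-Co2, mt-Co3, mt-Atp6 and Rpl24, genes that every cell uses, are listed at 0 too. CD4 T cell markers were present in every library, none of 13 listed at 0, and summed to 5716 to 6153 CPM in sgSmad3 and 4629 to 5390 in control libraries. B cell markers summed to 77 to 105 in sgSmad3 and 95 to 96 in control libraries, mainly from Ighm, with Pax5, Ms4a1 and Cd22 listed at 0. Myeloid markers summed to 50 to 92 in sgSmad3 and 38 to 57 in control libraries with Itgam listed at 0. Markers of CD8, NK and gamma-delta T cells summed to 344 to 383 in sgSmad3 and 347 to 369 in control libraries. Red cell genes summed to 33 to 88 in sgSmad3 and 13 to 19 in control libraries, with Alas2 listed at 0, and their part in the results was not tested. Cytosolic ribosomal protein genes, listed after their values were seen, summed to 52398 and 53018 in sgSmad3 libraries, against 67080 and 62685 in control libraries, and to 56513 and 55531 in sgSmad2/3 libraries, against 65785 and 57003 in sgSmad2 libraries. The sgSmad3 sums lay below both control sums and the sgSmad2/3 sums below both sgSmad2 sums, with control replicate 1 and sgSmad2 replicate 1 highest. Of 75 tested, 0 passed, 36 had an unadjusted p under 0.05, all of them lower (484 of 10185 genes in all), and 16 were apart and lower (5.23% in all). The median log2 change was -0.35, or -0.29 without control replicate 1. Their part in the results was not tested.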

How the data were processed

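RNA libraries were made with the QuantSeq 3′ FWD kit, per the labels' protocols. Tools named, with no role, in the submitters' processing notes are Bowtie2, deepTools, Subread 2.0.1 and STAR 2.7.9a, with mm10 as build; annotation and strand setting: not given in the sources used here. Both tables were deposited by the authors under the name TPM. In the Smad table the deposited values are a score, CPM (counted reads scaled to a common library total) rounded to whole numbers, and an unnamed last line holds the worth of 1 read. In the cell-type table the authors' values are CPM, and 100% were whole multiples of 1 read within a tolerance of 0.01. The plan had assumed TPM. Symbols came from a reference table (55154 of 55421 IDs matched), and 27 symbols turned into dates were restored. Coordinates are GRCm38.p6.

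limma 3.58.1 in R 4.3.3 was fitted with an intensity trend to log2(value + 1), all 8 Smad libraries in 1 fit, for genes at 5 or more in at least 2 of the 4 sgSmad3 and control libraries; Benjamini-Hochberg threshold 0.05. Treg against Th0 used genes at 1 CPM or more in at least 3 of 9 libraries. Fold changes are on the log2(value + 1) scale, which understates those of low genes. edgeR 4.0.16 served as an alternative on recovered reads. A run of the fit on simulated data assumed the same spread for all genes, so it does not vouch for the calls in these libraries. Named genes were the targeted and series genes, up to 12 called genes in each direction (with under 5 called, the 5 of lowest unadjusted p), and in each list the called members, or else the 2 of lowest p. Further list members given by value, among them Nrp1, Itgae, Acsl5 and Cd44, fall outside this rule. Members, lists and rules were chosen with earlier results of these data known. Replicate numbers were not taken to pair libraries. Deviations from group means correlated at 0.0181 between control and sgSmad3 and at -0.00184 to 0.0761 in most other pairs of groups. Between control and sgSmad2 the correlation was 0.284, so these groups shared part of their replicate differences. The Acsbg1 and ATAC libraries were not used here.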

Additional observations from a re-analysis of the deposited data

How the results depend on the processing

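All 10 genes called in sgSmad3 against control kept their direction in every alternative and stayed called with a pseudocount of 0.5 or 5, a filter at 20, quantile normalization, Gm42418 left out, or a replicate block. The block called 26 genes here and 28 in sgSmad2/3 against sgSmad2. It is given as a setting only, since the labels do not say that the numbers pair the libraries. In sgSmad3 against control, 0 passed with a filter at 1 or more, with no filter or with the 4 libraries alone, and 2 without the intensity trend; leaving out 1 library gave 0 to 4. In sgSmad2/3 against sgSmad2, 0 passed with a filter at 1, no filter or no trend, and leaving out 1 library gave 0 to 2. In sgSmad3 against sgSmad2, a pseudocount of 0.5 gave 3, a filter at 1 or none 0 and a filter at 20 gave 2. No trend gave 1, which was higher in sgSmad3 and so not among the 5 lower genes. The number also moved when 1 library was left out. Where a library was left out, the lone sample was assumed to vary like the other groups; looser filters test more genes, and other causes were not tested. Genes apart by 1.5-fold numbered 354 higher and 299 lower with a pseudocount of 5, 1164 and 1139 with a filter at 1 or none, 312 and 192 with a filter at 20, and 816 to 1161 higher and 798 to 851 lower with 1 library left out. Of genes higher in Treg, 41 were apart and lower with a filter at 20, and 55 without genes that passed the filter through one group only, an alternative chosen after seeing the data. Those lower in Treg and apart and higher numbered 20 to 28 with 1 library left out. The medians of both sets kept their sign throughout: -0.278 to -0.380 and 0.193 to 0.252 with 1 library left out. Treg against Th0 (770 genes) gave 453 without the trend, 493 to 627 with 1 library left out and 1066 in edgeR. Leaving out 1 library moved Foxp3 between -0.503 and 0.348 (above 0 without sgSmad3 replicate 1, 0.110, or control replicate 2), mt-Nd4 between -0.114 (without sgSmad3 replicate 1) and 0.849, and Cst3 between -0.498 and 0.154 (without control replicate 2); none of these passed the test in any setting.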

Other observations

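Among the 60 genes of lowest unadjusted p in sgSmad3 against control, several belonged to none of the lists, and they are given here by value, chosen after their values were seen; none passed the test. Neurl1b, a ubiquitin ligase of Notch ligands, had 321 and 295 CPM in sgSmad3 libraries, against 108 and 185 in control libraries (log2 change 1.12, SE 0.23, limma adjusted p = 0.11). Ets2, a transcription factor downstream of Ras signalling, had 58 and 71 in sgSmad3 libraries, against 30 and 31 in control libraries (log2 change 1.05, limma adjusted p = 0.11). Ly6e, a glycolipid-anchored surface protein of lymphocytes, had 622 and 441 in sgSmad3 libraries, against 180 and 286 in control libraries (log2 change 1.20, limma adjusted p = 0.13). All 3 had sgSmad3 values above both control values. Actr3b, a subunit of the actin-nucleating Arp2/3 complex, had 11 and 18 in sgSmad3 libraries, against 47 and 36 in control libraries (log2 change -1.48, SE 0.32, limma adjusted p = 0.11). Fabp5, a fatty acid-binding protein, had 54 and 74 in sgSmad3 libraries, against 104 and 147 in control libraries (log2 change -0.96, limma adjusted p = 0.14). For Actr3b and Fabp5 the sgSmad3 values lay below the control values, and on the Smad2-guide background Actr3b had 10 and 14 in sgSmad2/3 libraries, against 34 and 24 in sgSmad2 libraries, while Fabp5 had 93 and 82, against 87 and 72.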
